A study of Mus musculus with 6 samples.

Results

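The genes described here are the transcriptional coactivators YAP (Yap1) and TAZ (Wwtr1) together with 8 of their well known targets, Ankrd1, Ccn2 (also called Ctgf), Ccn1 (also called Cyr61), Amotl1, Amotl2, Ajuba, Lats2 and Axl, 10 genes out of the 54446 in the count table. They were chosen by the values of Ankrd1, which stood near the top of the rises from control to oxaliplatin, so the values of all 10 in that contrast are given as a description, without tests. All 10 were among the 14956 genes that passed the filter on low counts. They were followed in TRAMP-C2 cells, a cell line from a prostate tumour of a male C57BL/6 TRAMP mouse, a strain in which the probasin promoter drives a viral T antigen in the prostate epithelium. There were 3 groups of 2 poly(A) RNA libraries each, namely untreated cells (Ctrl), cells exposed to 2 µM oxaliplatin (Oxali) and cells exposed to 2 µM cisplatin (Cispl) for 24 h. Every group had the same DMEM-based medium, with fetal bovine serum, NuSerum IV, bovine insulin and dehydroisoantrosterone, a steroid. The labels number the libraries within a group but do not say that they came from separate cultures, so p-values measure the spread between these libraries, which may be technical.

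YAP and TAZ carry no DNA-binding domain of their own and act on genes through TEAD transcription factors. In the Hippo pathway the MST kinases (Stk3, Stk4) activate the LATS kinases, which phosphorylate YAP and TAZ so that they are held in the cytoplasm or degraded. Several targets feed back on the pathway, among them Lats2 and the angiomotins Amotl1 and Amotl2. In epithelial tumours the pathway is known for coupling cell density, cell shape and tension on the actin skeleton to growth. RNA levels do not report the phosphorylation or the location of YAP and TAZ, which were not measured here.

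The stretches before the transcription start are shown for the target with the largest Oxali difference (Ankrd1), for a CCN gene, and for Amotl2 and Ajuba, which were higher in Oxali than in Cispl. RefSeq windows of 300 bases, from 250 before to 50 after a start, were at hand for 9 of the 10 genes, in 11 windows, and Ccn2 had none. Each was searched on both strands for GGAATG, the core of the TEAD site, which is CATTCC on the other strand. The 250 bases before the start are printed 5′ to 3′ on the gene's own strand in build GRCm38.p6, with GGAATG or CATTCC in capitals. They cover chr19:36119845-36120094 (minus strand, Ankrd1), chr3:145649986-145650235 (minus strand, Ccn1), chr9:102717554-102717803 (plus strand, Amotl2) and chr14:54577662-54577911 (minus strand, Ajuba). The Ankrd1 and Amotl2 stretches lie inside the span that GENCODE gives the gene.
Ankrd1: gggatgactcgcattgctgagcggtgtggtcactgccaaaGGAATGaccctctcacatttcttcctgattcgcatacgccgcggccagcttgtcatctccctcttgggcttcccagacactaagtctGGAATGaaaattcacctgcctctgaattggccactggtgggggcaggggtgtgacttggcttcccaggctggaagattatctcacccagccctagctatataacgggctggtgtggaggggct
Ccn1: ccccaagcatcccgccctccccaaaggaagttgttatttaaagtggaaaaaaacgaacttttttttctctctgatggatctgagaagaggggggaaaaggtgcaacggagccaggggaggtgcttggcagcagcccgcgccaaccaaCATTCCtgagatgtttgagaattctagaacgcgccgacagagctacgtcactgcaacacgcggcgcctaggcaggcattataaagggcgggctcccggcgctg
Amotl2: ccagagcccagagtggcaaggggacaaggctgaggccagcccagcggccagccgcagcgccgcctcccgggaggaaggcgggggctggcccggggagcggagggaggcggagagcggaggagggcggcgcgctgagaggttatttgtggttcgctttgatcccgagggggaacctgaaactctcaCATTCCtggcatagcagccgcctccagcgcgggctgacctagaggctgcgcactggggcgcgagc
Ajuba: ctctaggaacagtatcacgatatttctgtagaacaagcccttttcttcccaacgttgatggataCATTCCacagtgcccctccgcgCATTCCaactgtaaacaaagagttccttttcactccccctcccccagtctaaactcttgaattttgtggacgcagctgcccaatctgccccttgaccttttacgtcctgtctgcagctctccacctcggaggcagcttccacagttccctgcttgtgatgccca

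Of the 9 genes with a window, 8 held the TEAD core, in 9 of their 11 windows, against 14.7% of all 32851 windows. The share is a description, because the genes were picked as known targets of TEAD. Counted from the start, the first base of a match lay at -210 and -123 in Ankrd1, -103 in Ccn1, -65 in Amotl2 and -186 and -164 in Ajuba. A match was also present in windows of Axl, Lats2 (1 of 2), Yap1 and Wwtr1 (the same match in both Wwtr1 windows, which overlap), whereas these letters did not occur in the Amotl1 window or in the other Lats2 window. The AP-1 motif TGANTCA occurred in 0 of the 11 windows (7.81% of all windows) and the CArG box, the site of the serum response factor SRF, also in 0 (1.63% of all windows). The searches did not overlap in a match, and a match does not show that a factor was bound.

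**Figure D1:**
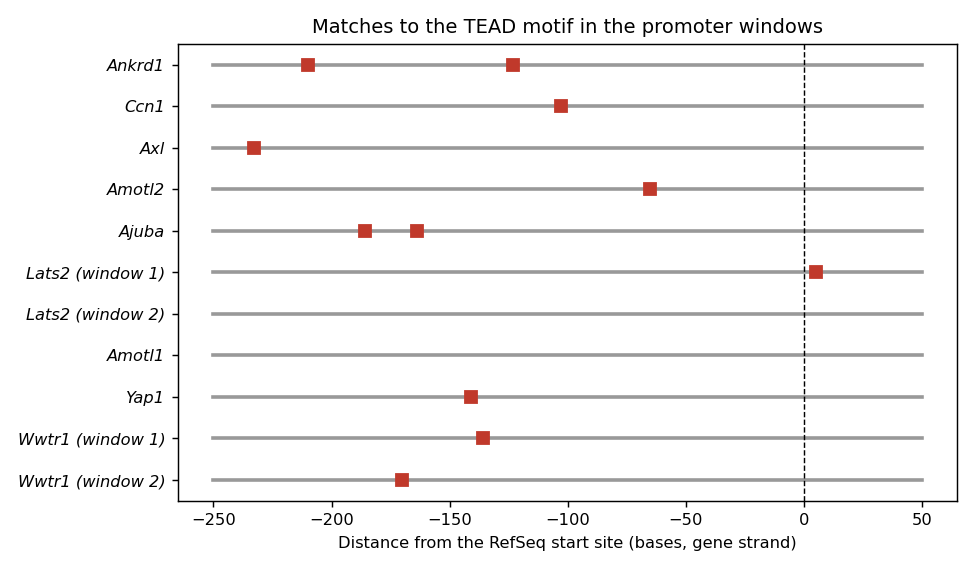
Position of the TEAD core GGAATG or CATTCC in the RefSeq windows of the 9 genes, in bases from the transcription start (x axis), with 1 line per window. Squares mark matches. Ankrd1 and Ajuba each carry 2 matches, and the Amotl1 window and 1 Lats2 window carry none.

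Total counts lay between 21345312 and 24041767 per library, and 3 counts, the most that a count of 0 allows for, came to between 0.125 and 0.141 CPM (a limit for counting error only). Of the epithelial markers, Krt8 and Krt18, the keratins of simple epithelia, were at 6.10 to 14.2 TPM (counts per exon length, scaled to the same total in every library), Krt14 was at 5.87 to 10.9 TPM, and Cdh1, for E-cadherin, at 10.2 to 15.4 TPM. Krt5 had 0 counts and Epcam at most 2 counts. Pbsn, the prostate secretory gene probasin, had 0 counts. The mesenchymal markers were Vim, Fn1, Cdh2 and Col1a1. Their sum was 5042 to 5228 TPM in Ctrl, 4694 to 4834 in Oxali and 4396 to 4673 in Cispl. Col1a1 was the highest of them in every library, at 2308 to 2491, 1961 to 1995 and 1755 to 1861 TPM in the same order. Vim came next and went the other way, at 1433 to 1541 TPM in Ctrl, 1597 to 1602 in Oxali and 1674 to 1759 in Cispl. Fn1 was at 1085 to 1188, 1027 to 1124 and 863 to 946 TPM. The libraries thus held low levels of most epithelial markers beside high levels of mesenchymal ones. The part of these shifts in the results was not tested. The fibroblast markers summed to 183 to 189 TPM in Ctrl, 192 to 195 in Oxali and 181 to 184 in Cispl. The immune markers summed to at most 4.81 TPM and the endothelial markers to at most 0.179 TPM. In bulk RNA, fewer cells of a kind and less RNA per cell cannot be told apart.

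Ankrd1, a nuclear ankyrin repeat protein that responds to mechanical stress (ENSMUSG00000024803, chr19:36111961-36120099, minus strand, GRCm38), was high after both drugs. Its normalised counts (counts divided by the library's size factor) were 1396 and 1507 in Ctrl, 4232 and 3898 in Oxali, and 3262 and 3448 in Cispl. The 3 groups did not overlap, with Oxali highest and Ctrl lowest. The log2 difference between Oxali and Ctrl was 1.49 (SE 0.07), a 2.80-fold level. It ranked 2 by size among the 1583 genes with higher calls, a mean normalised count of 100 or more, and groups that did not overlap. Just above it lay Gm14296 at 3.89-fold (SE of the log2 value 0.17), a predicted gene whose count is uncertain because near-identical copies can share its reads, and just below it Ccl2, a chemokine that draws monocytes, at 2.75-fold (SE of the log2 value 0.09).

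In Cispl, Ankrd1 stood 2.31-fold above Ctrl (log2 difference 1.21, SE 0.07). Between the drugs the log2 difference was 0.28 (SE 0.07, Oxali higher). Both values are given without a test, because the Ctrl and Oxali libraries they use chose the gene.

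**Figure D2:**
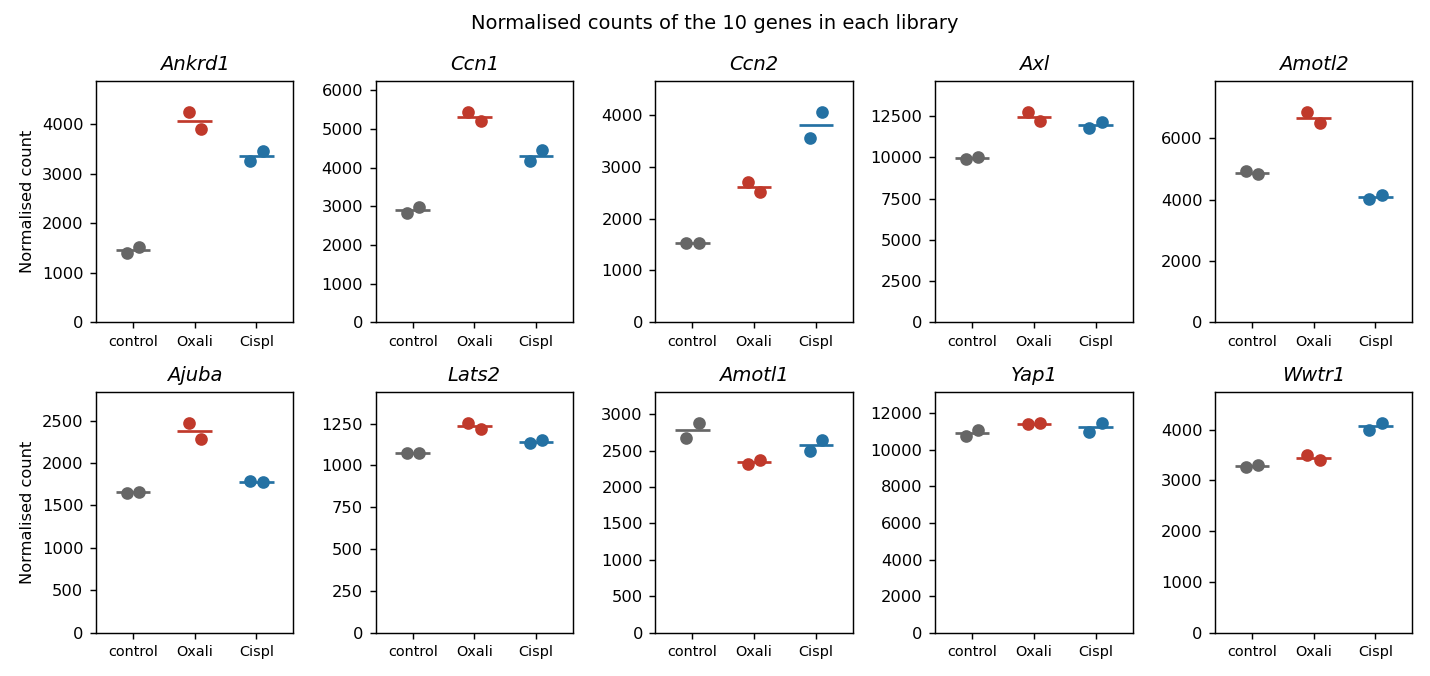
Normalised counts (y axis, starting at 0) of the 10 genes in each of the 6 libraries, with a point per library and a bar at the mean of the 2 libraries of a group. Ankrd1, Ccn2 and Ccn1 stand above Ctrl after both drugs, Amotl2 is above Ctrl in Oxali and below it in Cispl, and Yap1 lies between 10738 and 11459 in every library.

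Ccn1 and Ccn2, secreted matricellular proteins that bind integrins and are the usual readouts of YAP and TAZ activity, both rose in Cispl, and they ranked in opposite order under the drugs. Ccn2 (ENSMUSG00000019997, chr10:24595442-24598683, plus strand) had 1520.2 and 1529 normalised counts in Ctrl, 2715 and 2519.5 in Oxali, and 3563 and 4049 in Cispl. Ccn1 (ENSMUSG00000028195, chr3:145646976-145649981, minus strand) had 2839 and 2980.3 in Ctrl, 5430.1 and 5198 in Oxali, and 4180.1 and 4447 in Cispl. For both genes the 3 groups were separate, but Cispl was the highest group for Ccn2 and Oxali for Ccn1. Against Ctrl, Ccn2 stood 1.72-fold higher in Oxali (log2 0.78, SE 0.08) and rose in Cispl (log2 1.32, SE 0.08, DESeq2 adjusted p = 1.79e-60). Ccn1 stood 1.83-fold higher in Oxali (log2 0.87, SE 0.06) and rose 1.48-fold in Cispl (log2 0.57, SE 0.06, DESeq2 adjusted p = 8.40e-21).

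The drugs differed in both CCN genes. Ccn2 was lower in Oxali than in Cispl by a log2 difference of -0.54 (SE 0.08, DESeq2 adjusted p = 8.20e-11), and Ccn1 was higher by 0.30 (SE 0.06, DESeq2 adjusted p = 1.76e-06). The ratio of Ccn1 to Ccn2, from TPM, was 2.65 and 2.76 in Ctrl, 2.83 and 2.92 in Oxali and 1.66 and 1.56 in Cispl. It was thus lowest in the Cispl libraries, where Ccn2 gained more than Ccn1. An antisense gene, Gm15270, overlaps Ccn2 and had 10.8 to 20 counts per library.

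Amotl2 and Amotl1 encode angiomotin-like scaffolds of cell junctions that bind YAP and hold it outside the nucleus, and Amotl2 was the gene of the 10 in which the drugs lay farthest apart. Amotl2 (ENSMUSG00000032531, chr9:102716672-102733418, plus strand) had 4925 and 4834 normalised counts in Ctrl, 6841 and 6490.2 in Oxali, and 4010.5 and 4139 in Cispl. The Oxali libraries were above Ctrl and the Cispl libraries below it. In Cispl the gene fell to 0.835 of the Ctrl level (log2 -0.26, SE 0.05, DESeq2 adjusted p = 2.63e-06), whereas in Oxali it stood at 1.37 times that level (log2 0.45, SE 0.05). Oxali exceeded Cispl by a log2 difference of 0.71 (SE 0.05, DESeq2 adjusted p = 5.35e-44).

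Amotl1 (ENSMUSG00000013076, chr9:14541966-14645056, minus strand) differed from its relative, with 2676 and 2876 normalised counts in Ctrl, 2320.0 and 2368 in Oxali, and 2501 and 2643 in Cispl. Both drug groups lay below Ctrl without overlap, Oxali lowest. The log2 difference was -0.24 (SE 0.07) in Oxali and -0.11 (SE 0.07) in Cispl, the latter short of the threshold (DESeq2 adjusted p = 0.201). Scaling by total counts in place of median-of-ratios size factors brought the Cispl value to -0.16 and past the threshold (DESeq2 adjusted p = 0.0494). The TPM ratio of Amotl2 to Amotl1 was 2.94 and 2.69 in Ctrl, 4.72 and 4.39 in Oxali and 2.57 and 2.51 in Cispl.

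Ajuba, a LIM domain protein that binds LATS kinases and restrains them, differed between the drugs. Its normalised counts (ENSMUSG00000022178, chr14:54567472-54577558, minus strand) were 1651 and 1661 in Ctrl, 2469 and 2284 in Oxali, and 1788 and 1771 in Cispl. The Oxali libraries stood apart from the other 4, and the Cispl libraries lay narrowly above Ctrl. The log2 difference from Ctrl was 0.52 (SE 0.07) in Oxali and 0.10 (SE 0.07, DESeq2 adjusted p = 0.284) in Cispl. Between the drugs it was 0.42 (SE 0.07, DESeq2 adjusted p = 6.23e-08).

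Lats2, the kinase that phosphorylates YAP and TAZ and is itself a target, moved little. It had 1073 normalised counts in each Ctrl library, 1252 and 1217 in Oxali, and 1131 and 1149 in Cispl (ENSMUSG00000021959, chr14:57689662-57758388, minus strand). The groups did not overlap, but the log2 differences were small, at 0.20 (SE 0.08) in Oxali and 0.09 (SE 0.08, DESeq2 adjusted p = 0.462) in Cispl. Between the drugs the value was 0.12, with a 95% interval from -0.04 to 0.27 (DESeq2 adjusted p = 0.330).

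Axl, the receptor tyrosine kinase for Gas6, had the highest level per length of the 10 genes in Ctrl and Cispl. Its normalised counts (ENSMUSG00000002602, chr7:25757273-25788705, minus strand) were 9885 and 10002 in Ctrl, 12721.5 and 12192.5 in Oxali, and 11756 and 12166 in Cispl. Every drug library was above both Ctrl libraries. Axl rose 1.20-fold in Cispl (log2 0.27, SE 0.04, DESeq2 adjusted p = 6.89e-10) and stood 1.25-fold higher in Oxali (log2 0.33, SE 0.04). The difference between the drugs was 0.06 (95% interval -0.02 to 0.14, DESeq2 adjusted p = 0.302).

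The coactivators themselves split. Yap1 (ENSMUSG00000053110, chr9:7931999-8004596, minus strand) had 10738 and 11059 normalised counts in Ctrl, 11388 and 11459 in Oxali, and 10987 and 11459 in Cispl. The Cispl and Ctrl libraries overlapped. The log2 difference from Ctrl was 0.07 (SE 0.04) in Oxali and 0.04 (95% interval -0.03 to 0.12, DESeq2 adjusted p = 0.456) in Cispl, and between the drugs it was 0.03 (95% interval -0.05 to 0.10, DESeq2 adjusted p = 0.701).

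Wwtr1 (ENSMUSG00000027803, chr3:57455649-57575910, minus strand), the gene of TAZ, had 3273 and 3304 normalised counts in Ctrl, 3495 and 3406 in Oxali, and 4001 and 4127 in Cispl. The Cispl libraries were the highest, and the Oxali libraries lay just above Ctrl. Wwtr1 rose 1.24-fold in Cispl (log2 0.31, SE 0.05, DESeq2 adjusted p = 6.61e-08), against a log2 value of 0.07 (SE 0.05) in Oxali. Oxali was lower than Cispl by -0.24 (SE 0.05, DESeq2 adjusted p = 6.14e-05), and without Oxali replicate 2 this value was -0.22 and missed the threshold (DESeq2 adjusted p = 0.0509). The TPM ratio of Yap1 to Wwtr1 was 1.69 and 1.73 in Ctrl, 1.68 and 1.74 in Oxali and 1.42 and 1.43 in Cispl. Apart from Gm15270, the genes that overlap a member had at most 5.15 counts in any library.

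Counted as a group, 5 of the 9 genes other than Ankrd1 passed the test in Cispl against Ctrl, where 28.1% of all genes tested did. Ccn2, Ccn1, Axl and Wwtr1 were higher (15.7% of all genes) and Amotl2 was lower (12.4% of all genes). Shares of all genes, here and below, include genes with few counts, in which a change of a given size is harder to call. Of the 2355 genes called higher, at least 2281 were among the 10731 with a mean normalised count of 100 or more. Every member reached that mean, so these shares understate the share among genes with comparable counts. The contrast shares its Ctrl libraries with the one that chose Ankrd1. The median log2 difference of the 9 was 0.10, against -0.00083 over all genes tested. Amotl1, Ajuba, Lats2 and Yap1 did not pass, though Amotl1 did with total-count scaling. The libraries of Cispl and Ctrl did not overlap in 8 of the 9, as in 69.4% of all genes. With a log2 difference of at least 0.5 asked for as well, Ccn2 and Ccn1 were left, 2 of the 9 (7.90% of all genes).

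**Figure D3:**
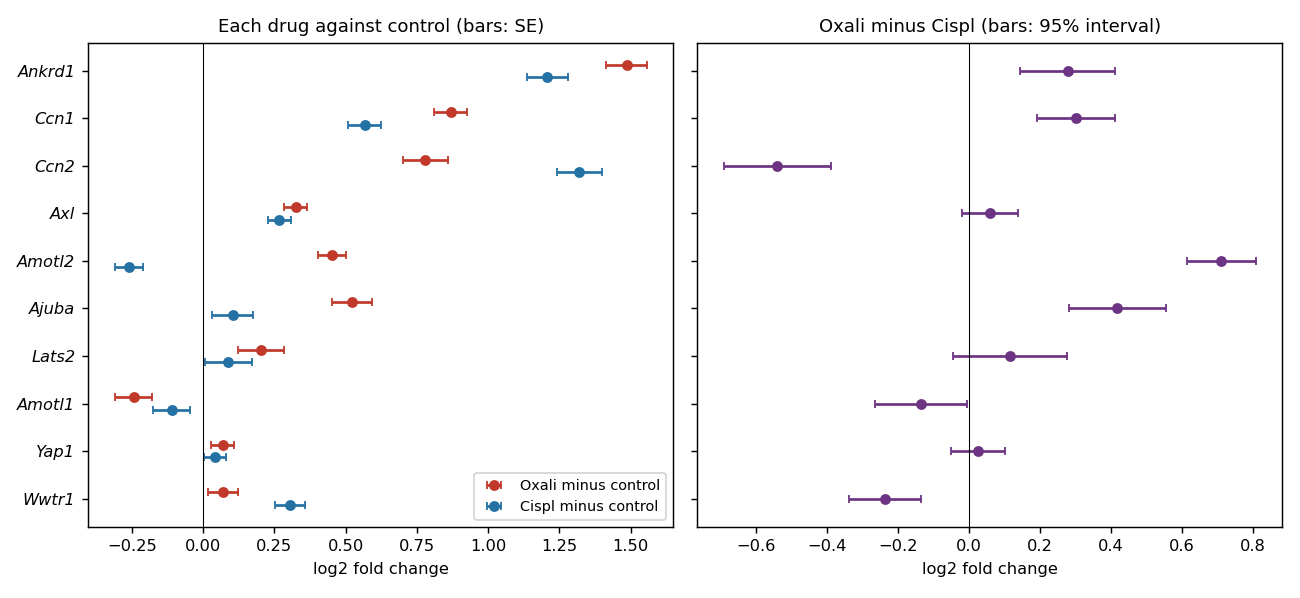
Log2 differences (x axes) of the 10 genes, with a point per gene. The left panel shows Oxali (red) and Cispl (blue) against Ctrl with bars of 1 SE, and the right panel Oxali against Cispl with 95% intervals. Amotl2 reads 0.45 in Oxali and -0.26 in Cispl, and Ccn2 reads 0.78 and 1.32. All Oxali values on the left and both other values of Ankrd1 were not tested.

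Oxaliplatin and cisplatin are both platinum complexes that bind DNA, and differ in the ligands on the metal. Oxaliplatin carries a diaminocyclohexane ligand and an oxalate leaving group, and cisplatin carries ammine ligands and chloride leaving groups. They were compared as 1 pair at the same dose and time. This contrast shares its Oxali libraries with the one that chose Ankrd1. Beyond Ankrd1, 5 of the other 9 genes passed the test between the drugs (19.9% of all genes tested did), with Ccn1, Amotl2 and Ajuba higher in Oxali (8.62% of all genes) and Ccn2 and Wwtr1 lower (11.3% of all genes). The libraries of the drugs did not overlap in 8 of these 9 genes, as in 68.0% of all genes. With a log2 difference of at least 0.5 asked for as well, Amotl2 and Ccn2 were left, 2 of the 9 (4.09% of all genes). For Amotl1 the log2 difference was -0.13 (95% interval -0.26 to -0.0044, DESeq2 adjusted p = 0.128). The intervals of Lats2, Axl and Yap1 given above include 0, which does not show that the drugs act alike on these genes.

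In Oxali against Ctrl, the contrast that chose the genes, counts only describe the choice and nothing is read from them. There 7 of the 10 were past the threshold, 6 higher and 1 lower (Amotl1), where 20.2% of all genes were, and 4 were at a log2 difference of at least 0.5 (4.38% of all genes). Amotl1 was not past it without Ctrl replicate 2, Oxali replicate 1 or Oxali replicate 2. The libraries did not overlap in any of the 10, as in 64.8% of all genes. Their median log2 difference was 0.39, against -0.0029 over all genes tested. After Ankrd1 at rank 2, Ccn1 ranked 42, Ccn2 64, Ajuba 252, Amotl2 356 and Axl 711 among the 1583 ranked genes. By the same ordering in Cispl, Ccn2 ranked 23, Ankrd1 39, Ccn1 327, Wwtr1 1229 and Axl 1480 of 2281. The drug contrasts share their Ctrl libraries, so their values are set side by side without a test of likeness.

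Levels per length placed the genes in a different order in each group. In Ctrl the mean TPM was 252 for Axl, 184 for Ccn1, 150.0 for Yap1, 98.8 for Amotl2, 87.7 for Wwtr1, 67.9 for Ccn2, 64.1 for Ankrd1, 57.9 for Ajuba, 35.2 for Amotl1 and 19.6 for Lats2. The libraries of Ccn2 and Ankrd1 overlapped, and other neighbours in this order did not. In Oxali, Ccn1 came first at 332 TPM, before Axl at 312, Ankrd1 at 178, Yap1 at 156, Amotl2 at 134 and Ccn2 at 115, with no overlap between neighbours. In Cispl, Axl at 288 TPM and Ccn1 at 259 were followed by Ccn2 at 162, Yap1 at 147 and Ankrd1 at 141. There the libraries of Yap1 overlapped those of Ccn2 and those of Ankrd1. Lats2 was the lowest of the 10 in every group, at 22.3 TPM in Oxali and 19.8 TPM in Cispl.

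**Figure D4:**
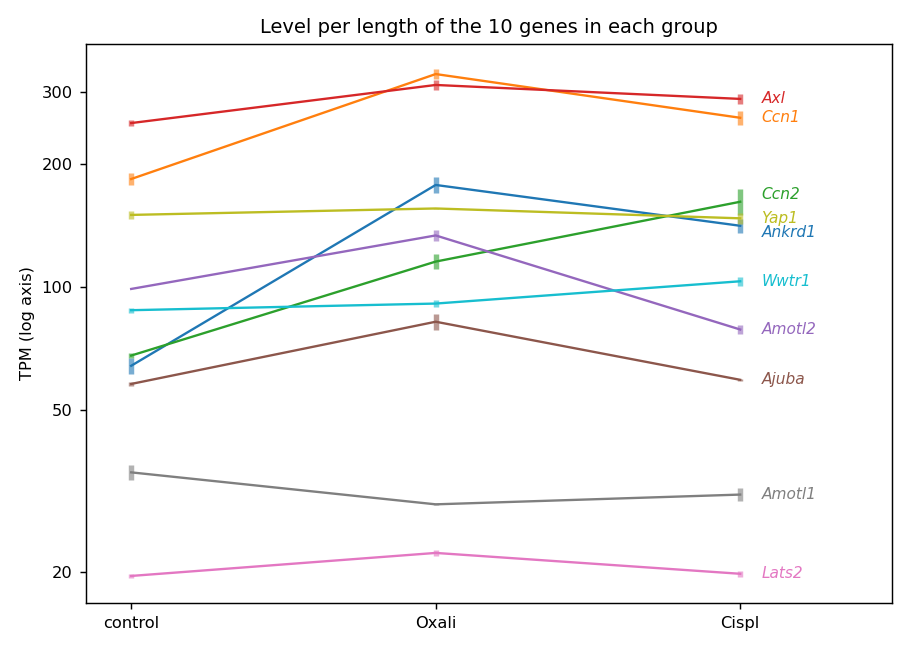
TPM of the 10 genes (y axis, log scale) in each group, with lines through the group means and a thick bar from the lower to the higher library. Axl and Ccn1 lead in every group, Lats2 is lowest, and Ankrd1 is at 64.1 TPM on average in Ctrl and at 178 TPM in Oxali.

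The 5 genes whose levels ran closest to Ankrd1 were not among the members. Closeness was the Euclidean distance over the 6 libraries between log2(normalised count + 1) values centred on each gene's mean, among the 10731 genes whose mean normalised count reached 100. The nearest were Siglecg (0.280), Ccl2 (0.339), Gata3 (0.446), Dlk2 (0.448) and Plk2 (0.465). Siglecg encodes a sialic acid receptor, Gata3 a transcription factor and Plk2 a kinase of the polo family. Ccn1 was at rank 34 (distance 0.728) and Ccn2 at rank 100 (0.891), whereas Amotl1, which lay lower in both drug groups, was at rank 8355 (1.81). The ordering depends on the measure, since ranking by Pearson correlation gave 5 genes of which 0 were among these.

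Other genes of the Hippo pathway were counted from a list of 30, of which 29 were tested. In Oxali against Ctrl 10 passed, 8 higher and 2 lower (Amot and Tead2, median log2 0.06), which is 34.5% of the list against 20.2% of all genes. In Cispl 9 did (31.0% against 28.1%), 6 higher and 3 lower (Amot, Fat4 and Tead1, median 0.09), or 3 higher and 5 lower with total-count scaling. In Oxali against Cispl 10 did (34.5% against 19.9%), 7 higher and 3 lower (Scrib, Tead2 and Vgll4, median 0.02). Genes in parentheses here and in the next lists were named after their values were seen. These counts were lower without any 1 library, also where that library was of the group not compared. Without Ctrl replicate 1 or without Oxali replicate 1 the first count was 5, and without Oxali replicate 2 it was 6. The count for Cispl was 5 without Ctrl replicate 1, Ctrl replicate 2, Oxali replicate 1 or Cispl replicate 1. Between the drugs, 3 passed without Oxali replicate 1, 4 without Oxali replicate 2, 5 without Cispl replicate 1 and 6 without Cispl replicate 2.

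Tead1, a DNA-binding partner of YAP and TAZ, moved in opposite directions under the drugs. Its normalised counts were 3710 and 4186 in Ctrl, 4789 and 4536 in Oxali, and 3165 and 3333 in Cispl, with no overlap between groups. It rose in Oxali (log2 0.24, SE 0.07, DESeq2 adjusted p = 0.00328) and fell in Cispl (log2 -0.28, SE 0.07, DESeq2 adjusted p = 3.66e-04), and the drugs differed by 0.52 (SE 0.07, DESeq2 adjusted p = 2.43e-12). The Oxali call was lost without Ctrl replicate 1 (0.16, DESeq2 adjusted p = 0.131) and without Oxali replicate 1 (0.20, DESeq2 adjusted p = 0.148), and the Cispl call without Ctrl replicate 2 (-0.19, DESeq2 adjusted p = 0.0554), while the call between the drugs held in every such fit.

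Of the other TEAD genes and cofactors, chosen after their values were seen, Tead2 was lower in Oxali than in Cispl (log2 -0.51, SE 0.10, DESeq2 adjusted p = 4.59e-06), at means of 995 in Ctrl, 807 in Oxali and 1147 in Cispl. Tead3 lay at 353, 439 and 328 in the same order. Its difference between the drugs (log2 0.42, SE 0.14, DESeq2 adjusted p = 0.0143) was lost without any 1 of the 4 Oxali and Cispl libraries (DESeq2 adjusted p from 0.170 to 0.293). Tead4 was at 269, 268 and 323 and did not pass in DESeq2. Vgll3, a vestigial-like cofactor that binds TEAD proteins, had 2186 and 2241 normalised counts in Ctrl, 3214 and 3215 in Oxali, and 1984 and 2074 in Cispl. It rose in Oxali (log2 0.54, SE 0.06, DESeq2 adjusted p = 2.22e-17), and its Cispl value of -0.13 (SE 0.06, DESeq2 adjusted p = 0.106) missed the threshold, though not in edgeR (adjusted p = 0.0204) or in DESeq2 with total-count scaling (-0.17, adjusted p = 0.0176).

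Upstream of the kinases, Scrib, a polarity scaffold, rose in Cispl from a mean of 2980 to 3777 normalised counts (log2 0.34, SE 0.05, DESeq2 adjusted p = 2.07e-09). Wwc1, the scaffold KIBRA, rose as well (log2 0.48, SE 0.08, DESeq2 adjusted p = 6.21e-08). Amot, the third angiomotin gene, fell in Cispl from 2060 to 1410 (log2 -0.55, SE 0.08, DESeq2 adjusted p = 2.20e-09), as did Fat4, an atypical cadherin, from 368 to 199 (log2 -0.89, SE 0.17, DESeq2 adjusted p = 2.07e-06).

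Of 16 further targets of YAP and TAZ, all tested, 6 passed in Oxali against Ctrl (20.2% of all genes did), 5 higher (Myof, Asap1, Crim1, Foxf2 and Nuak2) and 1 lower (Ccdc80), or 5 and 2 with total-count scaling (median log2 0.17). In Cispl 9 passed (28.1% of all genes did), 4 higher (Igfbp3, Foxf2, Gadd45a and Nuak2) and 5 lower (F3, Ccdc80, Dock5, Arhgef17 and Rbms3, median -0.00069). Between the drugs 8 passed (19.9% of all genes did), of which 6 were higher in Oxali (median 0.15). Without Oxali replicate 1 the counts were 2 for Oxali and 4 between the drugs, and between the drugs 3 passed without Cispl replicate 1 and 5 without Cispl replicate 2. In Cispl the higher genes included Igfbp3, a binding protein of insulin-like growth factors (log2 1.28, SE 0.22, DESeq2 adjusted p = 6.07e-08), and Gadd45a, a DNA damage gene that p53 also drives. Gadd45a had means of 104 in Ctrl, 88.1 in Oxali and 259 in Cispl, and differed between the drugs by a log2 value of -1.55 (SE 0.23, DESeq2 adjusted p = 1.32e-09). Lower in Cispl were Ccdc80 (log2 -0.27, SE 0.04, DESeq2 adjusted p = 2.82e-09), the tissue factor gene F3 (-0.39, SE 0.06, DESeq2 adjusted p = 1.45e-08) and Rbms3 (-0.87, SE 0.16, DESeq2 adjusted p = 4.90e-07). The further targets thus did not move as 1 block in Cispl.

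Genes of the actin skeleton and of SRF, many of which share control by actin tension with YAP and TAZ, split by drug. Of 20 tested, 16 were higher and 0 lower in Oxali against Ctrl (10.7% and 9.50% of all genes, median log2 0.26). In Cispl 7 were higher and 4 lower (15.7% and 12.4% of all genes, median 0.0040), or 5 and 6 with total-count scaling. Oxali exceeded Cispl in 14 and lay below it in 1 (8.62% and 11.3% of all genes, median 0.29). Most of these differences were small. With a log2 difference of at least 0.5 asked for as well, 3, 1 and 0 of the 20 were left in the same order. The shares of all genes were then 4.38%, 7.90% and 4.09%. Many genes of this list have high counts, in which small changes pass more easily. Without Ctrl replicate 2, Cispl replicate 1 or Cispl replicate 2, the Cispl total of 11 became 7. Actn1, an actin crosslinker, rose in Oxali and in Cispl (log2 0.38 and 0.25, SE 0.05 each, DESeq2 adjusted p = 5.98e-14 and 1.26e-06). Tagln, an actin-binding protein of contractile cells, had means of 4443 in Ctrl, 6682 in Oxali and 5209 in Cispl (log2 0.59 in Oxali, SE 0.04, DESeq2 adjusted p = 4.60e-40, and 0.23 in Cispl, SE 0.04, DESeq2 adjusted p = 1.73e-06).

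The actin genes themselves diverged. Actb, for beta-actin, rose in both drugs, more in Cispl (log2 0.39, SE 0.03, DESeq2 adjusted p = 7.50e-29) than in Oxali (0.15, SE 0.03, DESeq2 adjusted p = 8.32e-05), a difference of -0.24 (SE 0.03, DESeq2 adjusted p = 5.07e-11). Actg1, for gamma-actin, rose in Oxali (log2 0.18, SE 0.03, DESeq2 adjusted p = 2.50e-08) and fell in Cispl (-0.14, SE 0.03, DESeq2 adjusted p = 1.85e-05). Flna, which crosslinks actin filaments, fell in Cispl (log2 -0.32, SE 0.05, DESeq2 adjusted p = 1.12e-11). Cnn2 and Tpm4, for a calponin and a tropomyosin, rose in Oxali by 0.26 each (SE 0.04 and 0.03, DESeq2 adjusted p = 4.12e-09 and 8.63e-14). Their Cispl values were -0.14 for Cnn2 (SE 0.04, DESeq2 adjusted p = 0.00263) and -0.08 for Tpm4 (SE 0.03, DESeq2 adjusted p = 0.0479). The Cnn2 call in Cispl was lost without Ctrl replicate 2 (DESeq2 adjusted p = 0.0627), Cispl replicate 1 (0.0722) or Cispl replicate 2 (0.125), and that of Tpm4 was lost without any 1 library (0.138 to 0.396).

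**Figure D5:**
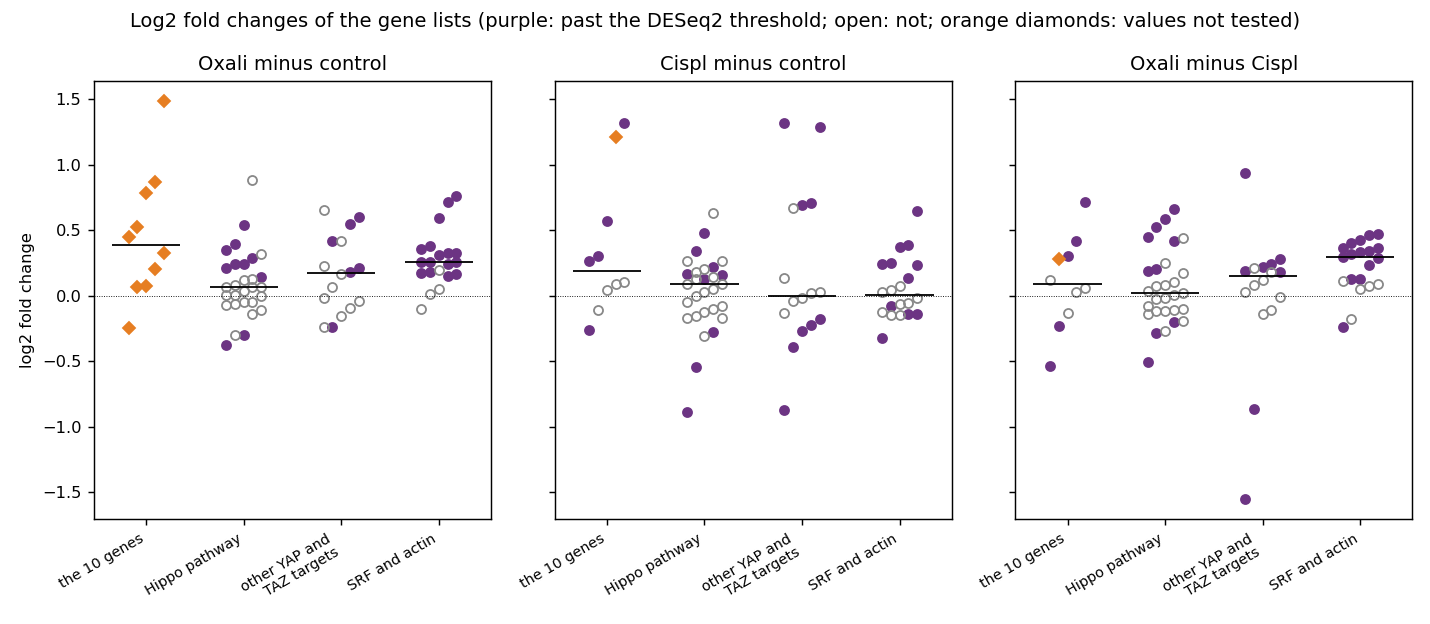
Log2 differences (y axis) of the 10 genes and of 3 gene lists in the 3 contrasts, with a point per gene, filled purple where it passed the DESeq2 threshold and open where it did not, orange diamonds for values that were not tested, and a black line at each median. Genes of the actin list lie mostly above 0 in Oxali against Ctrl (median 0.26) and on both sides of 0 in Cispl against Ctrl (median 0.0040).

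Among relatives of the members by sequence or as binding partners, 8 of 10 were tested, and Ccn6 and Ankrd2 did not pass the filter. In Oxali against Ctrl 1 was higher (Ccn4) and 1 lower (Ccn3), in Cispl 0 were higher and 3 lower (Ccn3, Ccn4 and Gas6), and Oxali against Cispl gave 1 higher (Ccn4) and 2 lower (Ccn3 and Tyro3). These are 25.0%, 37.5% and 37.5% of the 8, against 20.2%, 28.1% and 19.9% of all genes. The Oxali call of Ccn4 was lost without Ctrl replicate 1 or either Oxali library (DESeq2 adjusted p from 0.128 to 0.237), and the Ccn3 call between the drugs without either Oxali library or Cispl replicate 1 (0.152 to 0.411). Ccn3, of the same family as Ccn1 and Ccn2, ran the other way, with means of 2212 in Ctrl, 1363 in Oxali and 1608 in Cispl (log2 -0.70 in Oxali, SE 0.08, DESeq2 adjusted p = 5.42e-16, and -0.46 in Cispl, SE 0.08, DESeq2 adjusted p = 1.78e-07). Ccn4 had means of 4448, 4988 and 3683, and fell in Cispl (log2 -0.27, SE 0.05, DESeq2 adjusted p = 3.61e-06). It differed between the drugs by 0.44 (SE 0.05, DESeq2 adjusted p = 9.00e-15). Gas6, the ligand of Axl, fell in Cispl from 419 to 313 (log2 -0.42, SE 0.15, DESeq2 adjusted p = 0.0237), a call lost without any 1 of the 6 libraries (0.0570 to 0.329). Tyro3, a receptor of the Axl family, was at 292 in Oxali and 445 in Cispl (log2 -0.61, SE 0.17, DESeq2 adjusted p = 0.00224). That call was lost without Oxali replicate 1 (0.0789), Oxali replicate 2 (0.0603) or Cispl replicate 2 (0.227). Mertk, the other receptor of that family, was at 43.5, 38.8 and 34.6 in Ctrl, Oxali and Cispl, the ligand Pros1 at 944, 874 and 884, Ccn5 at 75.5, 50.8 and 71.7 and Ankrd23 at 37.8, 19.3 and 15.1, and none of these 4 passed the DESeq2 test against Ctrl.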

How the data were processed

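Poly(A) RNA of TRAMP-C2 cells was sequenced in 6 libraries (3 groups of 2, from the sample labels) prepared with a stranded kit. The authors deposited RSEM expected counts per gene, not scaled between libraries, of which 7977 to 8235 per library were not whole. The submitters' processing notes name STAR 2.5.3a, RSEM 1.3.0 and GRCm38.p6, whereas the methods of the study name a different counter. Whether counting used strand is not given in the sources used here. RSEM divides reads that match several genes. Symbols, positions and merged exon lengths came from GENCODE release 21 for mouse, in which 54409 identifiers matched, 53229 with the same version. Genes sharing near-identical copies are uncertain.

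Counts were rounded, and a gene was tested where 2 or more libraries reached 10 counts (14956 genes). DESeq2 (1.42.0, R 4.3.3) was run on the 3 groups together, without covariates. Wald p-values were two-sided and Benjamini-Hochberg adjusted over all genes of a contrast, with a threshold of 0.05 and independent filtering at 0.1. That filtering left Vgll2 without an adjusted p in every contrast, and Fjx1 and Ankrd23 without one in both contrasts with oxaliplatin. Such genes could not pass, but are counted among the genes tested. Size factors were 0.964 to 1.08. Intervals are 95% (normal quantiles times the SE, not adjusted). TPM were computed from counts and exon length. Promoter windows were RefSeq's on GRCm38.p6, and protein sequences were not used here. In simulated data (oxaliplatin against control, 14663 genes), a log2 value of 0.5 was put into 200 genes with mean normalised counts of at least 100. DESeq2 found 71.5% of these with 5.92% of its calls false, and edgeR (4.0.16) 72.5% with 11.6%. In the real contrast 20.2% of all genes were called, so these percentages need not hold there or for genes with lower counts.

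The members and lists were chosen with earlier results of these data known. All members were named, as were, from each of the Hippo, target and actin lists, the called genes with the 5 smallest adjusted p in cisplatin against control and any gene called in opposite directions under the drugs. Every tested relative and the 5 genes nearest to Ankrd1 were named too. Some genes that these rules or the marker lists cover are not reported here. Alternatives were edgeR's quasi-likelihood test, TMM or total-count scaling, no or a stricter count filter, a replicate block, no independent filtering, a fit to only the libraries compared, a minimum log2 change of 0.5, and leaving out each library. A filter on low counts and rounding can change calls of low genes, which no member is.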

Additional observations from a re-analysis of the deposited data

How the results depend on the processing

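Precision is limited by the 2 libraries per group. Counts of the 10 genes include Ankrd1, which was not tested, and those for oxaliplatin against control are a description. Shares of all genes for the minimum log2 difference are given above. The counts for the other settings here stand without such a share, so nothing is read from them about the lists. A minimum absolute log2 difference of 0.5 left 4, 3 and 2 of the 10 genes for oxaliplatin against control, cisplatin against control and oxaliplatin against cisplatin, and in the same order 1, 2 and 4 Hippo genes, 2, 5 and 3 further targets and 3, 1 and 0 actin genes. Leaving out each library gave, in that order, 6 to 7, 6 to 6 and 5 to 6 of the 10 genes, 5 to 9, 5 to 6 and 3 to 9 Hippo genes, 2 to 5, 6 to 8 and 3 to 8 further targets, and 13 to 16, 7 to 8 and 13 to 14 actin genes. A group left with 1 library was assumed to vary like the others. edgeR called 17 Hippo genes in cisplatin against control (11 higher, 6 lower). In oxaliplatin against control, edgeR and TMM scaling each put 8 of the 10 genes past the threshold (7 higher, 1 lower). Total-count scaling, which shifted the median of all genes by at most 0.048, changed the split of calls in cisplatin to 5 higher and 2 lower of the 10 genes, 3 and 5 Hippo genes and 5 and 6 actin genes, and in oxaliplatin to 5 and 2 further targets. It also turned Yap1 in cisplatin against control to -0.0059 (DESeq2 adjusted p = 0.936), and leaving out cisplatin replicate 1 turned Yap1 between the drugs to -0.0052 (DESeq2 adjusted p = 0.971, range over the libraries left out -0.0052 to 0.056). For the causes of these changes, beyond the smaller number of libraries, nothing was tested. Replicate numbers were shared between groups, but the labels do not say that they mark a shared batch, and deviations of same-numbered libraries correlated across 10731 genes at 0.0715 (control and oxaliplatin), -0.0477 (control and cisplatin) and -0.191 (oxaliplatin and cisplatin). With the replicate number as a block, 7, 6 and 6 of the 10 genes, Ankrd1 included, were past the threshold, as were 8, 7 and 8 Hippo genes, 5, 8 and 7 further targets and 15, 8 and 13 actin genes. The calls of Tpm4 and Gas6 in cisplatin and of Tead3 and Ccn3 between the drugs were lost under the block (DESeq2 adjusted p = 0.134, 0.109, 0.108 and 0.0910), and no call of a member was.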
